A study of Mus musculus with 6 samples.

Results

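The genes described here build and run the DNA replication machinery of the S phase. They are 48 genes chosen by name for their known role, from the origin recognition complex to the enzymes that supply deoxynucleotides. All 48 had a probe set with a single gene symbol, among 18193 genes measured that way, and 106 probe sets in all read them. Where a gene had several, the one with the highest mean signal stands for it.

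Prostate RNA was compared between mice given OSU-CG5 and mice given vehicle. OSU-CG5 is the code name of the compound given. All 6 mice were intact males and F1 offspring of C57BL/6 TRAMP and FvB parents. The TRAMP transgene drives the SV40 T antigens from a probasin promoter, active in prostate epithelium, so vehicle and treated mice alike bore the oncogene. From 6 weeks of age, 3 mice received OSU-CG5 by gavage at 100 mg/kg daily and 3 received vehicle, for 4 weeks. At 10 weeks, 2 to 4 h after the last dose, the dorsal and lateral prostate lobes were dissected together, and each mouse was read on 1 Affymetrix array. Values are log2 signals after RMA, which scales the arrays to a common distribution.

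As background, cells copy their DNA once per division. The origin recognition complex marks origins, Cdc6 and Cdt1 load the MCM helicase there, and kinases then fire the origins by recruiting Cdc45 and the GINS complex. Many of these genes are driven by E2F factors, which the retinoblastoma protein holds in check. The large T antigen binds the retinoblastoma protein, which drives epithelial cells of the TRAMP prostate into the cycle.

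Promoter sequence shows how far the genes share an E2F motif, which the choice of genes did not use. RefSeq entries of GRCm38.p6 were found for 40 of the 48 genes. Those not matched were Gmnn, Mcm4, Gins1, Gins2, Gins4, Rfc2, Prim2 and Pole. The motif searched was TTTNNCGC, on either strand and with overlapping matches counted, in the 250 bases before the start of transcription. It was present for 9 of the 40 genes (22.5%), beside 1335 of 27025 genes in the table, noncoding ones included (4.94%). It was present for 28.6% of 49 other replication genes and 15.4% of 52 mitosis genes. The 9 were Orc1, Orc3, Cdc6, Mcm5, Mcm6, Mcm7, Gins3, Rfc3 and Pola1. The CCAAT box (CCAAT) was present for 24 of 40 (60.0%) against 37.5% in the table and 73.1% of the mitosis genes. The CHR motif (TTTGAA), known from mitotic promoters, was present for 6 of 40 (15.0%) against 18.3% in the table and 36.5% of the mitosis genes. The 150 bases before the start are shown for 7 genes, 5′ to 3′ along the gene's strand, with letters matching the E2F motif on either strand in capitals. Mcm6, Pola1, Cdc7, Rrm1 and Tyms are shown because they are the matched genes whose unadjusted p between the groups was under 0.05, and Orc1 and Cdc6 because they hold the motif while their groups overlapped. For Cdc7 the first of 2 listed starts is used.
Mcm6, chr1:128359706-128359855, minus strand: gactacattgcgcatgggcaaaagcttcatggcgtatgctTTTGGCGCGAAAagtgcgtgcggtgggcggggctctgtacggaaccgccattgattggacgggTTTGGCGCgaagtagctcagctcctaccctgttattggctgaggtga
Pola1, chrX:93632156-93632305, minus strand: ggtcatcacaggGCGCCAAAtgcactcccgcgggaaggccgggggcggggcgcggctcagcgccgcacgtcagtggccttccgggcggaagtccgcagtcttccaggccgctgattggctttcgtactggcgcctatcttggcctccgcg
Cdc7, chr5:106964172-106964321, plus strand: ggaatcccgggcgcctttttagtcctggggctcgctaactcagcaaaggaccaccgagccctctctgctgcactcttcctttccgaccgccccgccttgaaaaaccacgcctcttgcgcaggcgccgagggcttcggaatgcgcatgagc
Rrm1, chr7:102441545-102441694, plus strand: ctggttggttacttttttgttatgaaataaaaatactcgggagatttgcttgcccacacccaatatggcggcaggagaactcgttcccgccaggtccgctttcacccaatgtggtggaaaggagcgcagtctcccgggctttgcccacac
Tyms, chr5:30073626-30073775, minus strand: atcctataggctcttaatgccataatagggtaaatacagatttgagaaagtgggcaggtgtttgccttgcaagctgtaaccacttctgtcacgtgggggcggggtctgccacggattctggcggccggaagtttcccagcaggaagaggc
Orc1, chr4:108579304-108579453, plus strand: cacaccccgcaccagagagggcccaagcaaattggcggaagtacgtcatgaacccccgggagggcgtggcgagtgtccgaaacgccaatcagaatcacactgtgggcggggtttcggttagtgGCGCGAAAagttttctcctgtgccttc
Cdc6, chr11:98908001-98908150, plus strand: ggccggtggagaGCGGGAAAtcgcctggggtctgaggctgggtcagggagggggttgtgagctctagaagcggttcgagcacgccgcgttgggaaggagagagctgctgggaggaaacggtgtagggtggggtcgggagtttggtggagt
Mcm6 held matches at 2 places, the farther of which reads on both strands, and Pola1, Orc1 and Cdc6 held 1 each. No match lay in the Cdc7, Rrm1 or Tyms window shown, which says only that these letters are not in it.

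The arrays differed in ways that touch these results. Transcripts of prostate secretory proteins had high signal on every array, with Pbsn at 13.28 to 13.91 and Msmb at 12.26 to 13.34, and the epithelial keratin Krt18 at 10.92 to 11.51. Vehicle replicate 2 stood apart. Its Pearson correlations with the other arrays were 0.966 to 0.981 over all probe sets, against 0.987 to 0.995 for all other pairs. The mean of 6 seminal vesicle transcripts was 7.91 there, against 3.90 and 5.08 in the other vehicle mice and 3.56 to 4.55 with OSU-CG5. All 8 macrophage markers had lower group means with OSU-CG5, as did 11945 of 18193 genes. The macrophage mean was 6.64 to 6.97 with OSU-CG5 and 7.12 to 7.56 in vehicle. Marker means of smooth muscle, skeletal muscle, basal epithelium and neuroendocrine cells were also lower on every treated array than on every vehicle array. Those of endothelium, T and B lymphocytes, fibroblasts, seminal vesicle and prostate epithelium overlapped. Of the smooth muscle, skeletal muscle, basal and neuroendocrine markers, 6 of 6, 2 of 7, 1 of 3 and 0 of 3 had a mean of at least log2 6. Dimmer genes more often read lower with OSU-CG5. Over all genes 34.3% were above 0, against 46.6% of those with a mean of at least log2 6. Gapdh 3′ signal minus 5′ signal, which reads RNA integrity, was 2.72, 3.03 and 2.94 with OSU-CG5 and 2.15, 2.26 and 2.76 in vehicle (p = 0.2, exact permutation test, two-sided; no p below 0.1 can be reached). The same measure of Actb was 2.97, 3.11 and 3.01 with OSU-CG5 and 2.91, 2.92 and 3.15 in vehicle, with overlapping groups (p = 0.6, exact permutation test). The part of these differences in the replication genes' values was not tested. In bulk tissue, a different number of cycling cells and a different amount of RNA per cell cannot be told apart.

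Most replication transcripts read slightly higher with OSU-CG5, but none passed the adjusted test. The median log2 difference of the 48 genes was 0.15, and 33 of them (68.8%) were above 0. Over all genes the median was -0.09 with 34.3% above 0, and over the 9627 genes with a mean of log2 6 or more it was -0.02 with 46.6% above 0. The second set is the closer one in signal, since 45 of the 48 had such a mean, and 32 of those 45 (71.1%) were above 0. With limma and Benjamini-Hochberg adjustment over 45037 probe sets, 0 were called at an adjusted p under 0.05 (percent called 0), and 7399 (16.4%) had an unadjusted p under 0.05. No replication gene had an adjusted p below 0.150.

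Counted instead by an unadjusted p under 0.05, 6 replication genes (12.5%) were higher and 0 lower. The share higher was 5.4% over all genes and 9.13% over genes with a mean of at least log2 6, where 5 of the 45 replication genes (11.1%) counted. The share lower was 8.43% and 7.17%. The groups did not overlap for 8 genes (16.7%), all higher with OSU-CG5, against 8.1% of all genes and 13.5% of the brighter set, where 7 of the 45 (15.6%) counted. The reverse held for 0 genes here, against 14.2% and 10.9%. The counts of higher genes thus lay near the background of genes with a mean of at least log2 6, and most differences were small. Only Cdc7 and Tyms exceeded 1.5-fold, and of these Tyms had a mean under log2 6. In either direction, 438 of 18193 genes and 339 of the 9627 brighter ones did.

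**Figure D1:**
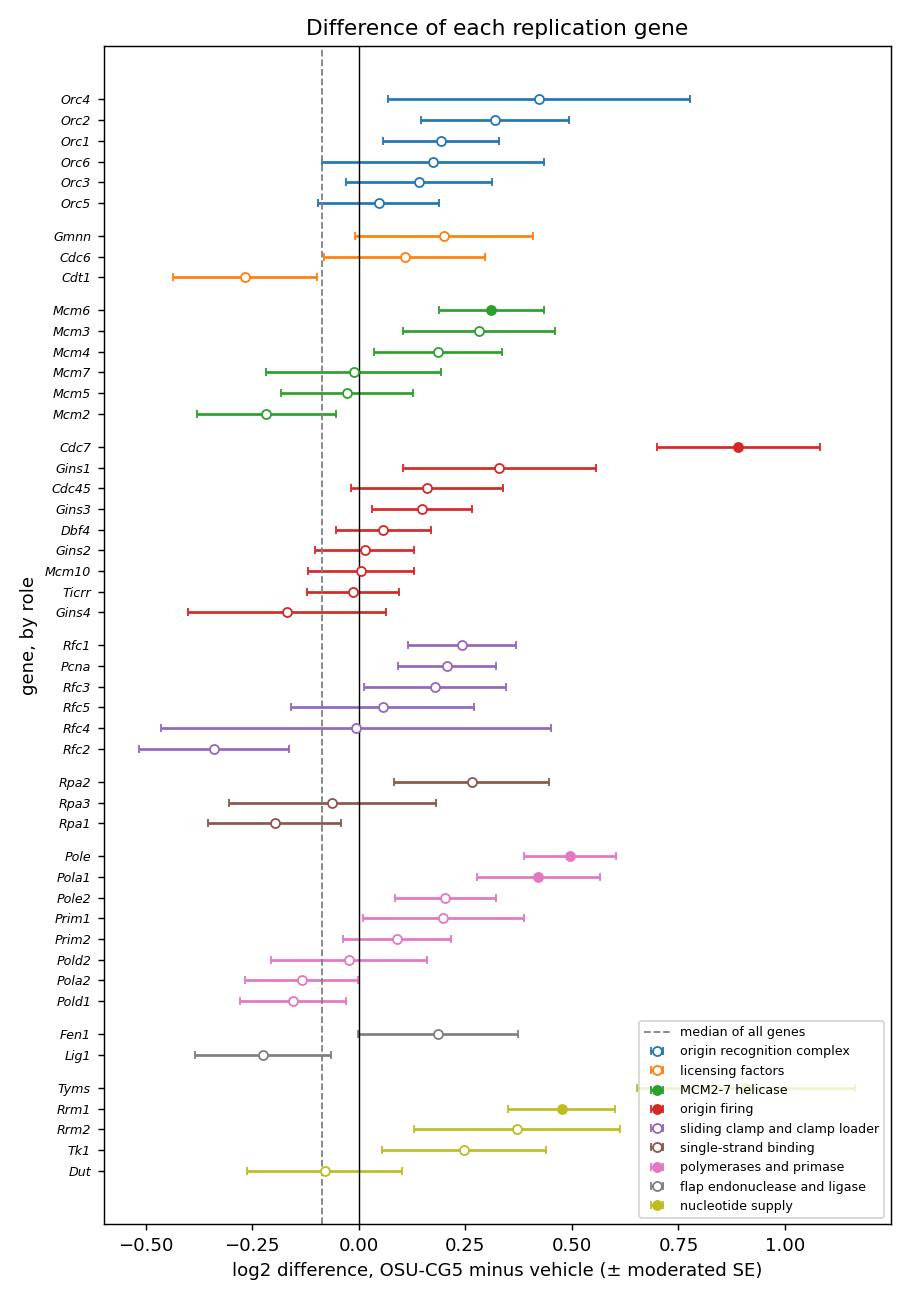
Log2 difference of each of the 48 genes, OSU-CG5 minus vehicle, with the moderated SE (3 arrays per group), grouped by role. Filled points have an unadjusted p under 0.05, the dashed line is the median of all genes at -0.09, and Cdc7 and Tyms lie farthest to the right.

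The origin recognition complex, the platform on which helicases are loaded, had all 6 subunits above 0, with log2 differences from 0.05 for Orc5 to 0.42 for Orc4 and a median of 0.18. None had an unadjusted p under 0.05. Orc2 read 8.18, 8.03 and 8.03 with OSU-CG5 and 7.89, 7.38 and 8.01 in vehicle. The groups did not overlap, but the highest vehicle array lay just under the lowest treated ones, and the difference was 0.32 (SE 0.17; limma adjusted p = 0.389). Orc4 read 9.30, 8.89 and 8.78 with OSU-CG5 and 8.90, 7.65 and 9.15 in vehicle. Its groups overlapped, and the difference of 0.42 (SE 0.35) rested on the low reading of vehicle replicate 2, without which it was -0.03. That array was the lowest of the 6 for 5 of the 6 subunits. Without it the median of the complex was 0.02, beside -0.05 for all genes, and without vehicle replicate 1 it was 0.34.

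Licensing factors differed in direction. Cdt1, which brings the helicase to origins, read 10.82, 10.84 and 10.91 with OSU-CG5 and 11.01, 11.50 and 10.86 in vehicle. The treated arrays lay low but overlapped with vehicle, and the difference was -0.27 (SE 0.17; limma adjusted p = 0.455). Its second probe set differed by 0.18 (SE 0.18), so its direction depended on the probe set. Cdc6, the loading ATPase, differed by 0.11 (SE 0.19) and geminin (Gmnn), the inhibitor of Cdt1, by 0.20 (SE 0.21).

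The MCM helicase, which unwinds DNA at the fork, was split, with 3 of its 6 subunits above 0 and a median of 0.09. Mcm6 read 11.50, 11.29 and 11.42 with OSU-CG5 and 10.94, 11.17 and 11.17 in vehicle. Every treated array was above every vehicle array, by a difference of 0.31 (SE 0.12; unadjusted p = 0.0353, limma adjusted p = 0.274). Its second probe set, nearly as strong, differed by 0.11 (SE 0.12). The differences of Mcm3 and Mcm4 were 0.28 (SE 0.18) and 0.19 (SE 0.15). Those of Mcm2, Mcm5 and Mcm7 were -0.22 (SE 0.16), -0.03 (SE 0.15) and -0.01 (SE 0.20). For Mcm7 the 95% interval ran from -0.48 to 0.46, so differences within that range could not be told from 0. The median of the subunits was -0.02 without vehicle replicate 1, but leaving out vehicle replicate 2 gave 0.20 and leaving out vehicle replicate 3 gave 0.18.

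Origin firing held the gene with the smallest p of all 48. Cdc7, the kinase that with its partner Dbf4 phosphorylates the helicase to start synthesis, read 8.51, 8.39 and 8.34 with OSU-CG5. In vehicle it read 7.66, 7.08 and 7.82. The groups were well apart, and the log2 difference was 0.89 (SE 0.19, 95% interval 0.45 to 1.33), a 1.85-fold difference (unadjusted p = 0.0014; limma adjusted p = 0.150). Its other probe set, dimmer with a mean of 5.91, differed by 0.15 (SE 0.13), with overlapping groups. Dbf4 itself differed by 0.06 (SE 0.11).

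Gins2, the firing gene of highest mean signal, read 8.31, 8.30 and 8.30 with OSU-CG5 and 8.16, 8.42 and 8.29 in vehicle. The groups overlapped fully, with a difference of 0.01 (SE 0.12, 95% interval -0.25 to 0.28). The remaining GINS subunits Gins1, Gins3 and Gins4 differed by 0.33 (SE 0.23), 0.15 (SE 0.12) and -0.17 (SE 0.23). Cdc45, which joins them in the active helicase, differed by 0.16 (SE 0.18), Mcm10 by 0.01 (SE 0.12) and the firing factor Ticrr by -0.01 (SE 0.11). The second probe set of Gins1, with a mean of 5.49, went the other way, at -0.30 (SE 0.13).

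**Figure D2:**
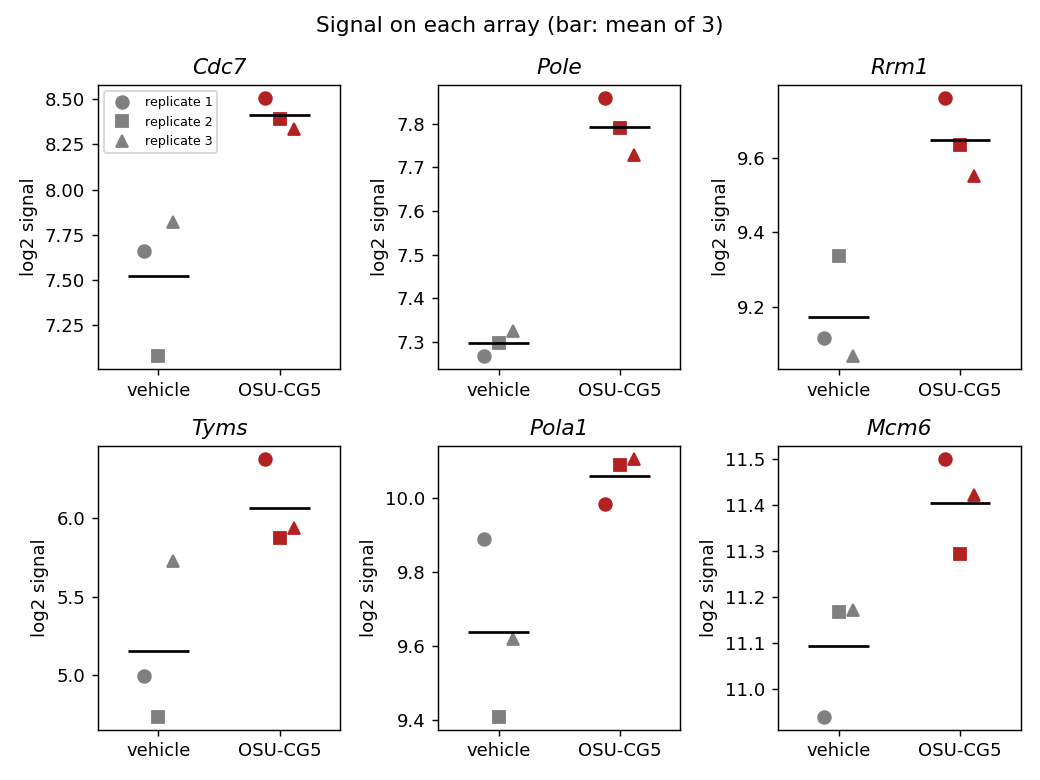
Log2 signal of the 6 genes with an unadjusted p under 0.05 on each array (grey, vehicle; red, OSU-CG5; marker shape, replicate; bar, mean of 3; axes differ and do not start at 0). In each panel all treated arrays lie above all vehicle arrays, most narrowly for Pola1.

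The sliding clamp Pcna, which tethers polymerases to DNA, read 12.34, 12.17 and 12.21 with OSU-CG5 and 11.95, 12.11 and 12.04 in vehicle. The groups did not overlap, but the gap was small, with a difference of 0.21 (SE 0.11; limma adjusted p = 0.397). Of the clamp loader, Rfc1 and Rfc3 differed by 0.24 (SE 0.13) and 0.18 (SE 0.17). Rfc2 read 8.06, 8.02 and 7.98 with OSU-CG5 and 8.33, 8.72 and 8.02 in vehicle. It was the most negative of the 48 at -0.34 (SE 0.18), and its lowest vehicle array lay among the treated ones. All 3 probe sets of Rfc2 were below 0. Rfc4 was the most variable gene between mice, with an SD of 0.95 in vehicle and 0.58 with OSU-CG5. It differed by -0.01 (SE 0.46, 95% interval -1.05 to 1.04), and Rfc5 by 0.06 (SE 0.21).

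Replication protein A coats single-stranded DNA at the fork. Its large subunit Rpa1 read 12.15, 12.00 and 12.05 with OSU-CG5 and 12.13, 12.59 and 12.07 in vehicle. Only vehicle replicate 2 stood out, and the difference was -0.20 (SE 0.16). Rpa2 read 8.27, 7.98 and 7.95 with OSU-CG5 and 7.43, 8.06 and 7.92 in vehicle, a difference of 0.27 (SE 0.18) with overlapping groups. Rpa3 differed by -0.06 (SE 0.24).

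Among polymerases and primase, 5 of 8 subunits were above 0, with a median of 0.14 that was 0.09 without either OSU-CG5 replicate 1 or vehicle replicate 2. Pole, the catalytic subunit of the leading-strand polymerase epsilon, read 7.86, 7.79 and 7.73 with OSU-CG5 and 7.27, 7.30 and 7.33 in vehicle. It was the tightest of these differences, with group SDs of 0.07 and 0.03, at 0.50 (SE 0.11, 95% interval 0.25 to 0.74; limma adjusted p = 0.151). It had a single probe set. Pola1, the catalytic subunit of the priming polymerase alpha, read 9.98, 10.09 and 10.11 with OSU-CG5 and 9.89, 9.41 and 9.62 in vehicle, a difference of 0.42 (SE 0.14; limma adjusted p = 0.230). Its groups were apart by less than 0.1. Its second probe set, much dimmer with a mean of 4.02, differed by 0.28 (SE 0.16).

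The primase subunit Prim1 read 10.63, 10.35 and 10.33 with OSU-CG5 and 10.42, 9.83 and 10.46 in vehicle. Its groups overlapped, with a difference of 0.20 (SE 0.19) that was -0.01 without vehicle replicate 2. Prim2 and the polymerase epsilon subunit Pole2 differed by 0.09 (SE 0.13) and 0.20 (SE 0.12). Of the lagging-strand polymerase delta, Pold1 and Pold2 differed by -0.15 (SE 0.12) and -0.02 (SE 0.18). Pola2 differed by -0.13 (SE 0.13), but its dimmer probe sets differed by 0.17 (SE 0.13) and 0.54 (SE 0.14). For the last, with a mean of 4.17, all treated arrays were above vehicle.

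The enzymes that finish lagging-strand fragments were split. The flap endonuclease Fen1 read 10.92, 11.28 and 11.38 with OSU-CG5 and 10.96, 11.33 and 10.73 in vehicle, a difference of 0.19 (SE 0.19). The ligase Lig1 read 9.03, 8.71 and 8.87 with OSU-CG5 and 8.86, 9.06 and 9.36 in vehicle, a difference of -0.22 (SE 0.16). Both had overlapping groups.

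Of the enzymes of deoxynucleotide supply, 4 of 5 were above 0, with a median of 0.37. Leaving out vehicle replicate 2 gave 0.56, and leaving out vehicle replicate 3 gave 0.21. Rrm1, the large subunit of ribonucleotide reductase, read 9.76, 9.63 and 9.55 with OSU-CG5 and 9.12, 9.34 and 9.07 in vehicle. All treated arrays were above vehicle, by 0.48 (SE 0.13; limma adjusted p = 0.177). Its other probe sets, with means of 6.92 and 4.33, differed by 0.28 (SE 0.21) and 0.11 (SE 0.12). The small subunit Rrm2 read 9.51, 9.66 and 9.90 with OSU-CG5 and 9.31, 9.83 and 8.81 in vehicle. Its groups overlapped, with a difference of 0.37 (SE 0.24) that was 0.63 without vehicle replicate 2.

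Thymidylate synthase (Tyms), which makes thymidylate, read 6.38, 5.87 and 5.93 with OSU-CG5 and 4.995, 4.74 and 5.73 in vehicle. The groups did not overlap and the difference was the largest of the 48 at 0.91 (SE 0.26; limma adjusted p = 0.184). Tyms also had the lowest signal of the 48, with a mean of 5.61, under log2 6. Its other 3 probe sets, with means of 2.95 to 4.78, differed by -0.15, -0.11 and -0.06, so no other probe set bore its direction. Thymidine kinase (Tk1) differed by 0.25 (SE 0.19) and the dUTPase Dut by -0.08 (SE 0.18). With the second probe set of each gene of this role, except Tk1, which had 1 only, the median was -0.03. The second probe sets of Tyms and Dut were dim, with means of 4.78 and 5.34.

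**Figure D3:**
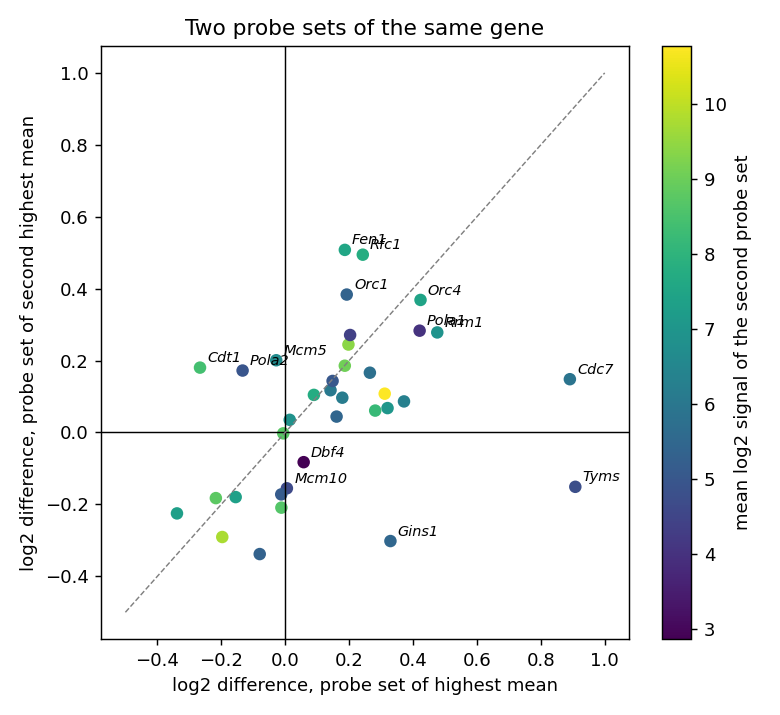
Log2 difference, OSU-CG5 minus vehicle, of the probe set of highest mean (x axis) and of second highest mean (y axis) for the 36 genes that have both, coloured by the mean log2 signal of the second; the dashed line marks equal values. Points lie in the same-sign quadrants for 29 genes, and Cdc7 and Tyms lie far below the dashed line.

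The first and second probe sets by mean signal had the same sign for 29 of the 36 genes with more than 1. The 7 that did not were Cdt1, Mcm5, Mcm10, Dbf4, Gins1, Pola2 and Tyms. Second probe sets of Cdt1 and Mcm5 had means of 8.42 and 6.65. Those of Mcm10, Dbf4, Gins1, Pola2 and Tyms had means of 2.87 to 5.49, under log2 6, as did some that agreed in sign. Dimmer probe sets also differed in sign from the first for Mcm3, Mcm7, Orc3 and Prim2, most for the dimmest of Mcm3 at -0.57 (SE 0.17), where all treated arrays were below vehicle. Over the 36 second probe sets the median difference was 0.10, beside -0.06 over all second probe sets. Of these 36, 3 were higher and 1 lower at an unadjusted p under 0.05, namely Orc1, Rfc1 and Pole2 higher and Gins1 lower, beside 8.56% and 6.61% of all second probe sets. None of these 4 was among the 6 genes called with the first probe set.

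The vehicle mice differed from each other more than the treated mice did. The median SD of the 48 genes was 0.30 in vehicle and 0.12 with OSU-CG5 (log2, n = 3 each), while over genes with a mean of at least log2 6 it was 0.21 and 0.12. Vehicle replicate 2 was the lowest of the 6 arrays for 16 of the 48 genes and the highest for 13 (60.4% together). Of the 9627 brighter genes, it was lowest for 1938 and highest for 4006 (61.7% together). The pooled shares were thus close, but the array was more often lowest than highest for the 48 and the reverse for brighter genes. A low vehicle reading raises the difference, OSU-CG5 minus vehicle. On vehicle replicate 2, Orc4, Rfc4 and Rpa3 differed from the mean of the other vehicle arrays by -1.37, -1.65 and -0.77. Cdc6, Mcm2, Rfc5, Tk1 and Rrm2 lay 0.58, 0.51, 0.65, 0.61 and 0.77 above that mean. Among treated mice, replicate 1 read highest for 36 of 48 genes (75.0%), against 50.3% of genes with a mean of at least log2 6.

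**Figure D4:**
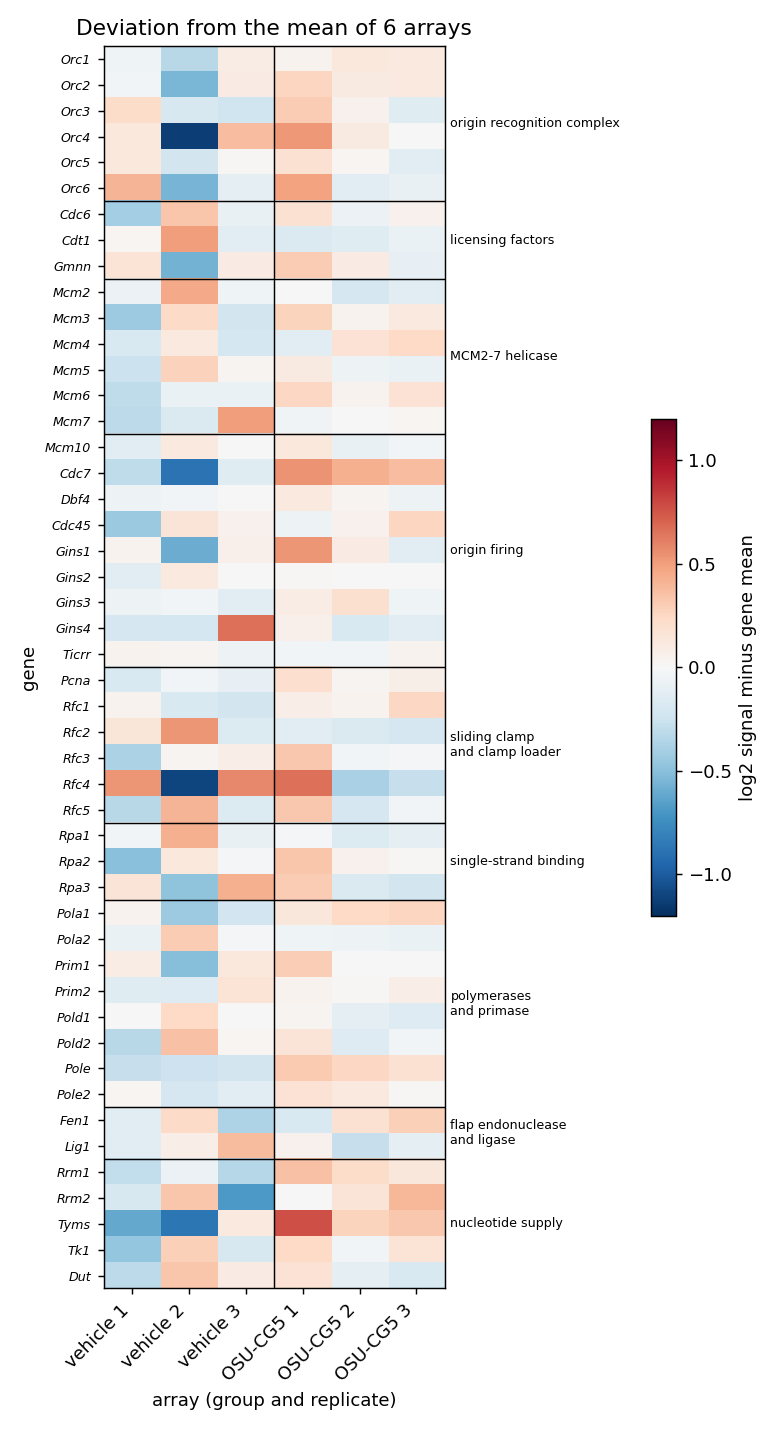
Log2 signal of each of the 48 genes on each array minus the gene's mean over the 6 arrays, ordered by role (red, above; blue, below). Vehicle replicate 2 is lowest for 5 of the 6 Orc subunits and high for Mcm2, and Cdc7 is above its mean on all 3 treated arrays.

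Leaving out single arrays moved the list. Without vehicle replicate 2 the median of the 48 was 0.09 against -0.05 for all genes, and 10 genes were higher at an unadjusted p under 0.05 and 0 lower, beside 6.07% and 6.58% of all genes. The genes added were Mcm3, Rpa2, Rrm2 and Tk1. Without OSU-CG5 replicate 1 the median was 0.08, against -0.08 for all genes, and 5 genes were higher and 0 lower, beside 4% and 6.62% of all genes. Cdc7 passed the adjusted threshold without vehicle replicate 3 (limma adjusted p = 0.0455), when 1.97% of all probe sets did, and with array quality weights (limma adjusted p = 0.0362), when 1.83% did. The same settings called 0.5% and 0.665% of genes. Over all its alternatives its adjusted p ran from 0.0362 to 0.573. Tyms passed without vehicle replicate 3 (limma adjusted p = 0.0357, range 0.0357 to 0.664). These refits reuse the same arrays.

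Other genes of the replication pathway, drawn up as a list of forks, checkpoints, chromatin assembly and E2F targets, are set beside the 48. Of 60 measured, 39 were above 0, with a median of 0.12 that was 0.0045 without vehicle replicate 1. At an unadjusted p under 0.05, 11 (of 60) were higher and 1 lower, against 9.13% and 7.17% of genes with a mean of log2 6 or more, and 0 passed limma's adjustment. Top2a, the topoisomerase that untangles copied DNA, read 10.00, 10.27 and 10.24 with OSU-CG5 and 9.39, 9.50 and 9.43 in vehicle, a difference of 0.73 (SE 0.12). The groups were far apart for this gene. Atad5, which unloads the clamp, differed by 0.72 (SE 0.17), the nuclease-helicase Dna2 by 0.46 (SE 0.12), the mismatch repair protein Msh6 by 0.46 (SE 0.13), Brca1 by 0.55 (SE 0.15) and the fork protein Timeless by 0.37 (SE 0.11). Rnaseh2c, a subunit of an RNase that removes RNA from DNA, was the gene that read lower, at -0.48 (SE 0.17).

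Mitosis genes act later in the same cycle. Of 60 measured, 45 were above 0, with a median of 0.10, and 6 were higher and 0 lower at an unadjusted p under 0.05, near the same background of 9.13% higher. The median was 0.04 without OSU-CG5 replicate 1 or vehicle replicate 1, and 0.17 without vehicle replicate 2. The 6 were Kif11, Ndc80, Ncapg, Cenpe, Mki67 and Kif20b, with differences of 0.34 to 0.73. The mean signal of the replication genes was 8.61 to 8.78 on the treated arrays and 8.49 to 8.59 in vehicle, only just apart. For the other replication genes it was 7.97 to 8.06 and 7.81 to 7.94, also apart. For the mitosis genes it was 7.66 to 7.80 and 7.49 to 7.68, so their groups overlapped, through vehicle replicate 2 alone. No test of the difference between these lists was made.

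**Figure D5:**
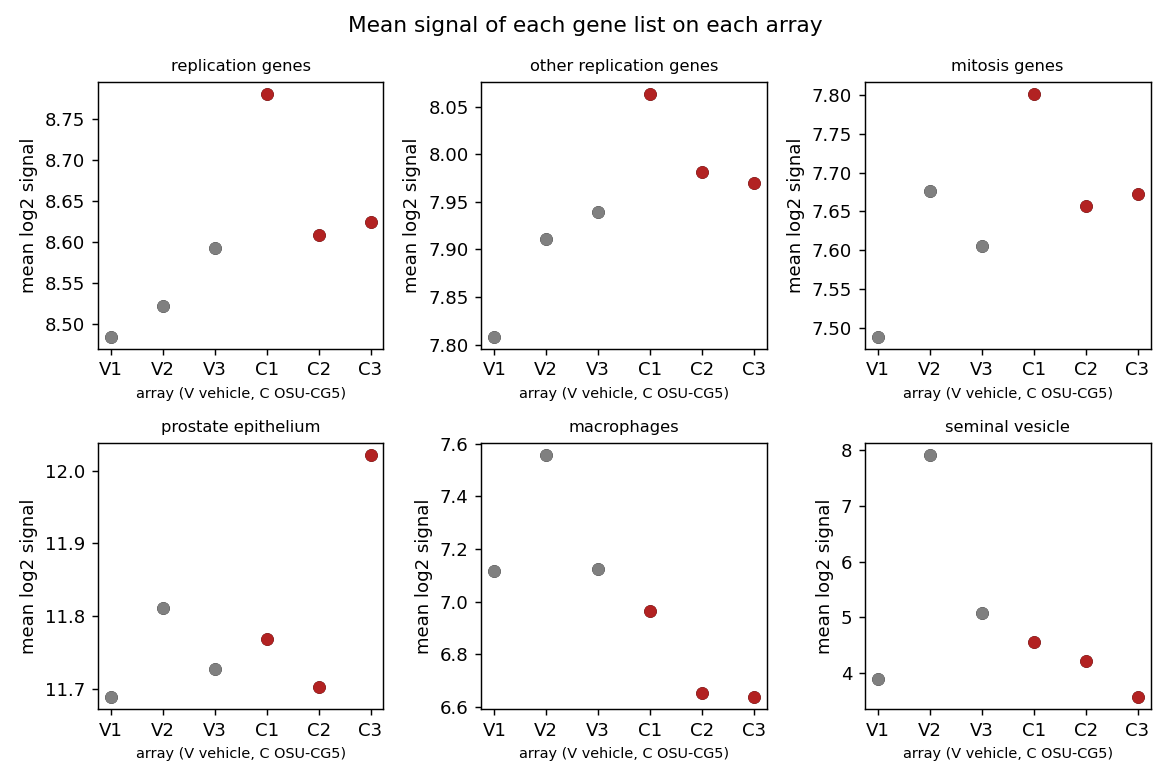
Mean log2 signal of 6 gene lists on each array (V, vehicle; C, OSU-CG5; axes differ and do not start at 0). The replication genes reach 8.78 in OSU-CG5 replicate 1, the macrophage markers are lower on all treated arrays, and the seminal vesicle transcripts reach 7.91 in vehicle replicate 2.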

How the data were processed

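The 6 arrays were grouped by the treatment that each source label names. For most treated samples the description gave a different compound number from the title and the source label, and the source label decided. The deposited values are log2 signals per probe set. Per the submitters' processing notes they come from RMA, run by software not given in the sources used here. RMA sets arrays on 1 distribution, so a broad shift in 1 direction is partly removed. Gene names are those of the platform annotation, used where it gave a single symbol (34945 of 45037, after 64 controls were removed).

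The test was limma (lmFit and eBayes, limma 3.58.1, R 4.3.3) on all 45037 probe sets without a filter, OSU-CG5 minus vehicle, with Benjamini-Hochberg adjustment at 0.05. SE is the moderated standard error, SD that of 3 arrays. The fit was also run on simulated arrays with independent normal noise, as a check of its mean estimates only. Such arrays hold none that stands apart as vehicle replicate 2 did, so the p values here were not checked by it. The array means of 10 marker lists were compared by exact permutation, two-sided. Of these lists, macrophages, smooth muscle, skeletal muscle, basal epithelium and neuroendocrine cells read lower at p = 0.1 (exact permutation, adjusted p = 0.2), endothelium at 0.2 (0.333), T and B lymphocytes at 0.3 (0.375), seminal vesicle at 0.3 (0.375), fibroblasts at 0.4 (0.444), and prostate epithelium was at 0.6 (0.6).

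The members and lists were chosen with earlier results of these data known. Values on every array are given for genes with an unadjusted p under 0.05 or groups that do not overlap, and in each role for the gene of highest mean and that of largest difference. Up to 6 genes of the other lists with the smallest p are named, and Rnaseh2c was added after its values were seen. Alternatives were a minimum mean of log2 6, median centring, cyclic loess, a trended robust prior, no moderation, array weights, 1 probe set per gene, other probe sets, and each array left out. The number of arrays limits the precision.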

Additional observations from a re-analysis of the deposited data

How the results depend on the processing

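The share of replication genes above 0 (68.8%) stayed between 62.5% and 77.1% over 16 alternatives, and their median above 0 in all, from 0.08 to 0.17. Over all genes the share above 0 was 34.3% and ran from 32.8% to 46.6%. The median of the 48 minus that of all genes was 0.241. It ran from 0.146 without vehicle replicate 2 to 0.259 without vehicle replicate 3, and was 0.154 without OSU-CG5 replicate 1. The median of the 48 moved to 0.077 without OSU-CG5 replicate 1. This move was about as large as the pooled SD between arrays of their mean signal (0.0773). The count at an unadjusted p under 0.05 went from 6 to 10 with array quality weights, where the shares of all genes were 7.17% higher and 11.2% lower. Over the arrays left out in turn it ran from 4 to 10, and the median from 0.077 to 0.17. The number of probe sets with a limma adjusted p under 0.05 was 0 with all arrays, 822 with array quality weights, 400 without vehicle replicate 2, 885 without vehicle replicate 3 and 0 without any of the other arrays. With an unadjusted p under 0.05 there were 7399, against 2661 with 1 probe set per gene and 3360 with a mean of at least log2 6, where fewer were tested. Leaving out an array gave 4663 to 9692. Tyms turned to -0.15 with its second probe set (SE 0.17), and the cause was not tested. Median centring and cyclic loess changed the sign of no role's median and kept the median of all genes between -0.09 and -0.04. No paired analysis was possible because the labels give no replicate numbers that tie mice of the 2 groups. The small number of arrays and the spread among vehicle mice limit what could be detected.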
